A study of Mus musculus with 13 samples.

Results

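Platelets store proteins in granules and release them when a vessel is injured. The 10 genes described here encode parts of that system: granule cargo (Pf4, Ppbp, F5, Thbs1 and Mmrn1), proteins of granule release (Plek and Rab27b), a platelet tubulin (Tubb1), a transcription factor of platelet formation (Nfe2) and a G protein subunit (Gng11). They were chosen by name, as a list of megakaryocyte granule, secretion and cytoskeleton genes. No measured value entered that rule, but earlier results of these data were known when it was set. All 10 are among the 24015 gene symbols of the count table, 9 had a count in at least 1 library, and the same 9 passed the filter on low counts that left 12536 genes to test.

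The samples were mouse haematopoietic stem cells (HSCs), sorted 100 at a time into 13 libraries. Single Vwf-expressing HSCs had been transplanted, recipients were followed for 16 weeks, and donor HSCs were then sorted from their marrow. The 3 PLT-HSC libraries came from recipients with P-restricted reconstitution, the 6 PEM-HSC libraries from recipients with PEM-restricted reconstitution and the 4 MUL-HSC libraries from recipients with multilineage reconstitution. In work on such clones P, E and M stand for platelets, erythrocytes and myeloid cells. All groups share the C57BL/6 strain, a Vwf-expressing starting cell and the same gate: Lineage- Sca-1+ Kit+ cells that were Flt3-, CD150+, CD48-, CD45.2+ and Gata1-. The age and sex of the mice, the reporter alleles behind the Vwf and Gata1 gates, and whether libraries of a group came from separate recipients are not given in the sources used here, so the p-values below speak only of spread among these libraries, part of which may be technical.

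Platelets are shed by megakaryocytes, large marrow cells that make the granule proteins, pack them and send the granules along microtubules into the forming platelet. Part of the HSC compartment transcribes some of these genes long before any megakaryocyte is formed, which is known as platelet priming. NF-E2, a dimer of the Nfe2 product with a small Maf protein, acts late in this programme and is needed for platelet release in mice, where Tubb1 and Rab27b are among its known targets.

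Gene counts ran from 29017378 to 32437607 per PLT-HSC library, from 22913695 to 28013676 per PEM-HSC library and from 16371921 to 41367057 per MUL-HSC library, and levels are given as CPM, counts scaled by the library's total gene count. A floor of 3 counts corresponds to 0.0725 CPM in the deepest and 0.183 CPM in the shallowest library. Counts hold PCR copies, so floors cover counting error only. Of the genes behind the gate, Kit ran from 187 to 647 CPM in PLT-HSC, from 204 to 463 CPM in PEM-HSC and from 217 to 396 CPM in MUL-HSC. Vwf, the gene behind the choice of the starting cell, had reads in all 13 libraries. Slamf1, which encodes CD150, averaged 235 CPM for PLT-HSC, 204 CPM for PEM-HSC and 89.1 CPM for MUL-HSC, and Ly6a, which encodes Sca-1, averaged 838, 731 and 481 CPM for the same groups. Gata1, gated out through a reporter, was at 0.276, 0 and 24.9 CPM in PLT-HSC replicates 1, 2 and 3. Its level ran from 0.75 to 22.4 CPM in PEM-HSC and from 6.17 to 27.6 CPM in MUL-HSC. Markers of other cells were partly read: T cell genes summed to between 5.83 and 44.1 CPM over all libraries with Cd3e, Cd3d and Cd3g at 0, and erythroid genes to between 16.6 and 144 CPM with Hbb-b1, Hba-a1 and Hba-a2 at 0.

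Pf4 and Ppbp lie next to each other in a cluster of chemokine genes, with starts 3917 bases apart on mouse chromosome 5, and Mmrn1 was not read in any library. Their promoters are shown to set the sequence before the start beside these unequal levels. RefSeq promoters of build GRCm38.p6 were held for 6 of the 10 genes, and the 250 bases before the start are printed 5′ to 3′. Capitals mark the ETS core (GGAAGT, or ACTTCC on the other strand) and a GATA sequence (AGATAA or TGATAA, or TTATCT or TTATCA on the other strand). ETS factors such as Fli1 and GATA factors bind such letters in megakaryocyte genes. Pf4 is shown from chr5:90772185-90772434, Ppbp from chr5:90768268-90768517 and Mmrn1 from chr6:60944067-60944316, all on the + strand.
Pf4: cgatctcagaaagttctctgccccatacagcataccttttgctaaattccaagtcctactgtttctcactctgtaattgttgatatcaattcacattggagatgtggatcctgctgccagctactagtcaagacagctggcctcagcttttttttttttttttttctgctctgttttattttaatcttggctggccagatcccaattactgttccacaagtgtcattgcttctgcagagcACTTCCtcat
Ppbp: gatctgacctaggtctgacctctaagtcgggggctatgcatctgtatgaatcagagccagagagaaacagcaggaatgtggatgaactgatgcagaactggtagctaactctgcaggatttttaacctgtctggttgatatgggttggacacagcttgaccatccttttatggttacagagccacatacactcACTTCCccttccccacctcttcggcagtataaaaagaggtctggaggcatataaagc
Mmrn1: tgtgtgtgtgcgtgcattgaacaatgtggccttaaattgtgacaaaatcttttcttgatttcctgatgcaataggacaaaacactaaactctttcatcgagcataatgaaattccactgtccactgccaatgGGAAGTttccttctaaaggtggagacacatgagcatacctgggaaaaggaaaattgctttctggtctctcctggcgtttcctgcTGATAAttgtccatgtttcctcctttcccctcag
The ETS core was found in Pf4 at positions -10 to -5, in Ppbp at -57 to -52 and in Mmrn1 at -118 to -113, counted from the base before the start as -1. It was found in 19.7% of 32851 promoter windows of the same length. Mmrn1 also held the GATA sequence, at -34 to -29, as did 16.6% of all windows. Neither the ETS core nor the GATA sequence was found in the windows of F5, Tubb1 and Plek, which were held but are not printed. Starts are those of the annotation. Whether a window, that of Mmrn1 included, lies before the start used in these cells was not tested. The core that NF-E2 shares with AP-1 (TGAGTCA, or TGACTCA on the other strand) occurred in 4.46% of windows and in 0 of the 6 held here. None of the marked letters overlap each other, and a match is a description of the letters, not a bound site.

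Averaged over all libraries, the 10 genes stood at very unequal levels. To compare genes, CPM was divided by the length of their merged exons in the GENCODE vM21 annotation of GRCm38, which may differ from the annotation used for counting. On this per-length scale Gng11 averaged 486 ± 168 CPM per kb (SD, n = 13 libraries) and Nfe2 371 ± 67.3, and Gng11 was the higher in 10 of 13 libraries. Pf4 averaged 94.5 ± 61.4 CPM per kb, below Nfe2 in all 13 libraries, and Ppbp averaged 12.2 ± 9.07, below Pf4 in all 13. The next levels were 9.04 ± 12.4 CPM per kb for Plek and 5.30 ± 2.68 for Rab27b. Neighbours here were not apart beyond their spread, since Ppbp exceeded Plek in 8 libraries and Plek exceeded Rab27b in 5 of 13. Tubb1 averaged 1.34 ± 2.52 CPM per kb, and Rab27b exceeded it in 11 of 13 libraries. Thbs1 averaged 0.549 ± 1.76 and F5 0.0868 ± 0.185 CPM per kb. The last 3 genes were not apart beyond their spread, since Tubb1 exceeded Thbs1 in 5 libraries and lay below it in 3, and Thbs1 exceeded F5 in 4 and lay below it in 3.

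**Figure D1:**
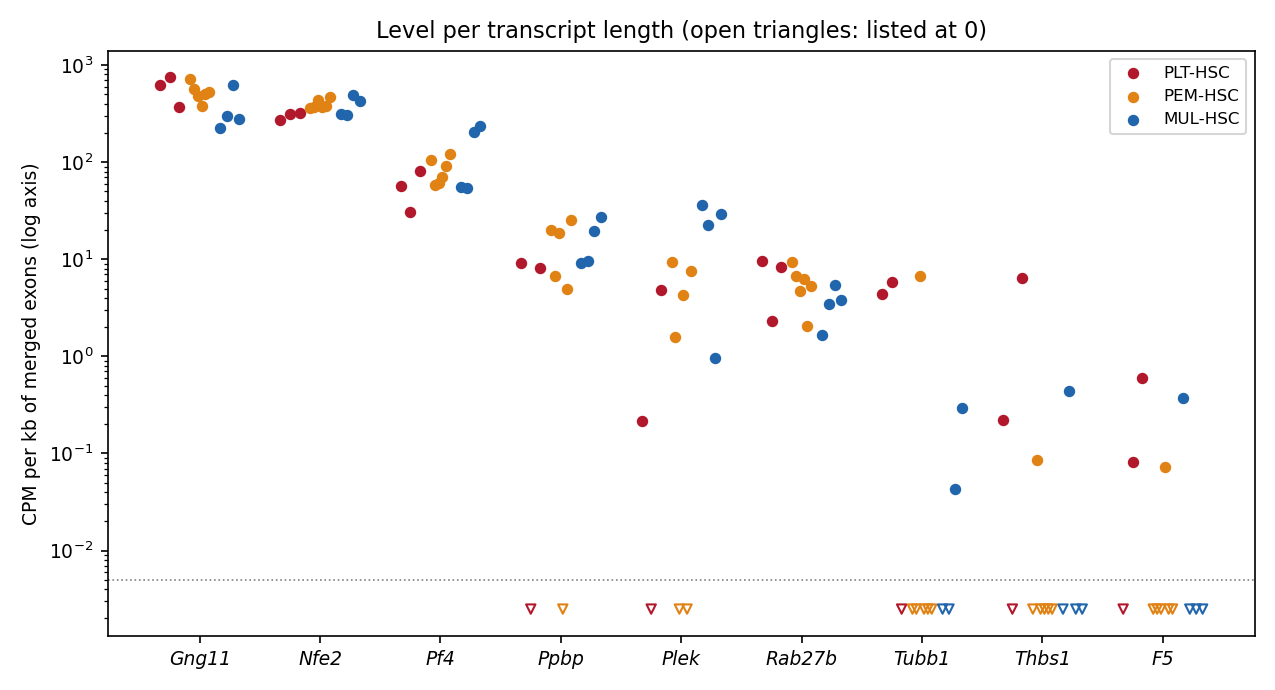
Level of 9 platelet genes per kb of merged exons (log axis) in each of 13 libraries, coloured by group, with genes ordered by their mean. Filled points are libraries with a count and open triangles are libraries listed at 0. Gng11 and Nfe2 stand highest in every group, and Tubb1, Thbs1 and F5 are at 0 in most libraries.

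None of the 9 tested genes was called between groups in the edgeR quasi-likelihood fit, where a gene is called at a Benjamini-Hochberg adjusted p under 0.05 over all 12536 genes. Among all genes, 6 or 0.0479% were called for PLT-HSC against MUL-HSC, 1 or 0.00798% for PEM-HSC against MUL-HSC, and 0 or 0.0% for PLT-HSC against PEM-HSC. At an unadjusted p under 0.05, 2 of the 9 genes passed for PLT-HSC against MUL-HSC (Gng11 higher, Pf4 lower), 0 passed for PEM-HSC against MUL-HSC, and 2 passed for PLT-HSC against PEM-HSC (Thbs1 higher, Nfe2 lower). The share of all genes passing at that level was 7.37%, 5.93% and 3.73% in the same order of comparisons. Nfe2 in PLT-HSC against PEM-HSC was the 1 case in which no library of a group overlapped the other group. Such separation was seen for 6.79% of all genes in PLT-HSC against MUL-HSC, 1.49% in PEM-HSC against MUL-HSC and 2.16% in PLT-HSC against PEM-HSC. DESeq2 and limma voom also called 0 of the 9 tested genes in each comparison. The comparisons of PLT-HSC and PEM-HSC with MUL-HSC share the MUL-HSC libraries, so their results are not independent.

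**Figure D2:**
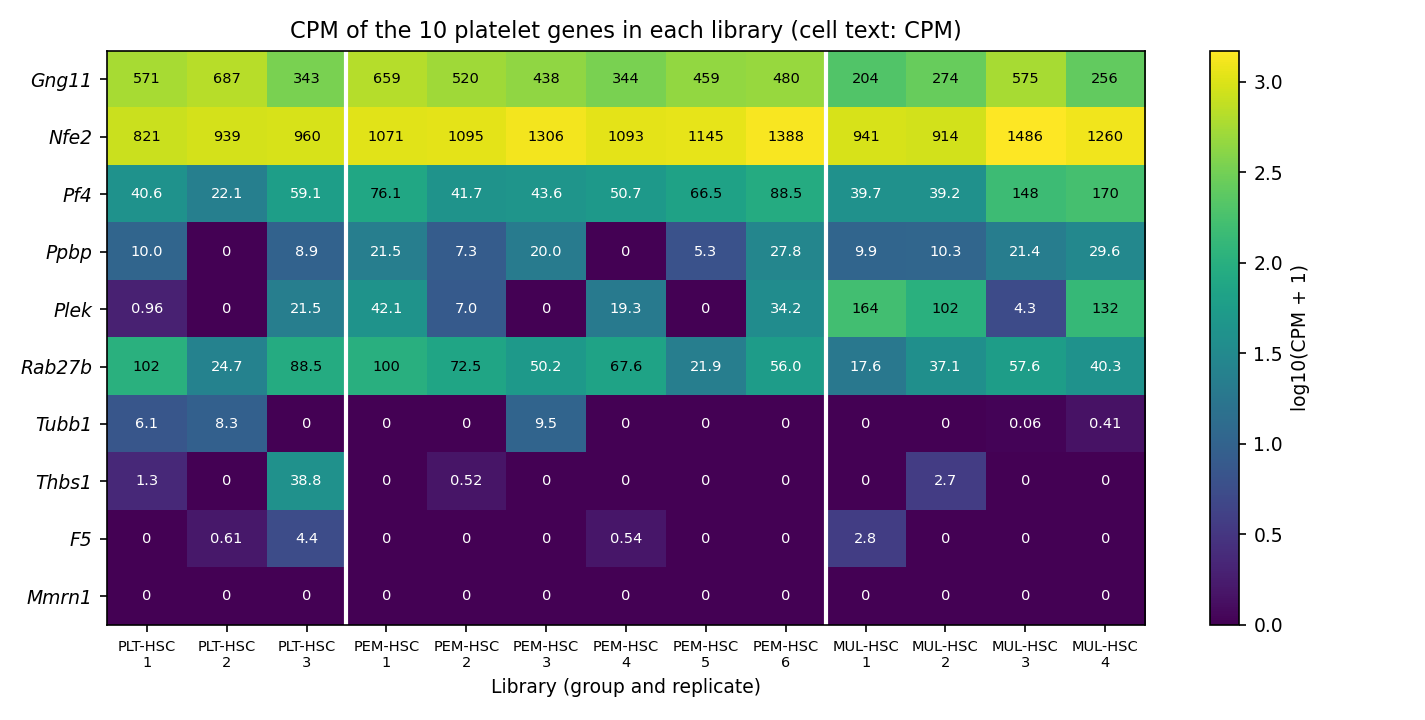
CPM of the 10 platelet genes (rows) in the 13 libraries (columns, grouped as PLT-HSC, PEM-HSC and MUL-HSC), with colour on a log10(CPM + 1) scale and the CPM written in each cell. Nfe2, Gng11, Pf4 and Rab27b have reads in all 13 libraries, Mmrn1 has reads in 0, and each of the other 5 genes is at 0 in at least 2 libraries.

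Pf4 encodes platelet factor 4, a chemokine of the alpha granule, and was read in every library. Its level was 40.6, 22.1 and 59.1 CPM in the PLT-HSC libraries, ran from 41.7 to 88.5 CPM in PEM-HSC with a median of 58.6, and was 39.7, 39.2, 148 and 170 CPM in the MUL-HSC libraries. MUL-HSC split into replicates 1 and 2, which lay within the range of PLT-HSC, and replicates 3 and 4, which lay above every other library, so the groups overlapped. Means of Pf4 ± SD were 40.6 ± 18.5 CPM for the 3 PLT-HSC, 61.2 ± 19.0 CPM for the 6 PEM-HSC and 99.2 ± 69.7 CPM for the 4 MUL-HSC libraries. The log2 fold change was -1.31 in PLT-HSC against MUL-HSC (SE 0.50, 95% interval -2.37 to -0.25, edgeR adjusted p = 0.63). It was -0.69 in PEM-HSC against MUL-HSC (interval -1.55 to 0.16, adjusted p = 0.999) and -0.62 in PLT-HSC against PEM-HSC (interval -1.59 to 0.36, adjusted p = 1). Without MUL-HSC replicate 4 the difference of PLT-HSC from MUL-HSC was -0.96 and that of PEM-HSC was -0.32.

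Surface genes of megakaryocytes and platelets were also higher in the MUL-HSC libraries with more Pf4. Summed over 11 such genes, they stood at 675, 715, 871 and 850 CPM in MUL-HSC replicates 1 to 4. The sum ran from 661 to 965 CPM in PLT-HSC and from 470.1 to 1201 CPM in PEM-HSC, so it overlapped between groups. Its relation to Pf4 was noticed after the values were seen, and its part in the Pf4 level was not tested. Itga2b, the platelet integrin alpha IIb, averaged 5.69 CPM for PLT-HSC, 8.61 CPM for PEM-HSC and 8.61 CPM for MUL-HSC, and Gp6, the collagen receptor, was at 0 in all 13 libraries.

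Ppbp encodes the precursor of the platelet chemokine CXCL7 and was lower than its neighbour Pf4 in every library. Its level was 9.96, 0 and 8.91 CPM in the PLT-HSC libraries, ran from 0 to 27.8 CPM in PEM-HSC with a median of 13.6, and was 9.91, 10.3, 21.4 and 29.6 CPM in the MUL-HSC libraries. The 2 highest MUL-HSC libraries were again replicates 3 and 4, and the groups overlapped. On the log2 scale the fold change was -1.55 in PLT-HSC against MUL-HSC (interval -4.86 to 1.76), -0.39 in PEM-HSC against MUL-HSC (interval -3.04 to 2.26) and -1.16 in PLT-HSC against PEM-HSC (interval -4.25 to 1.93). The edgeR adjusted p was 0.999, 0.999 and 1 for these comparisons. Intervals of this width include large changes in either direction.

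The other cargo genes were at 0 in most libraries and had reads in a few. F5 encodes coagulation factor V, which megakaryocytes of mice make and store, and it was above the floor in 4 of 13 libraries: PLT-HSC replicates 2 and 3 at 0.61 and 4.44 CPM, PEM-HSC replicate 4 at 0.537 CPM and MUL-HSC replicate 1 at 2.79 CPM. Mmrn1, whose product multimerin 1 binds factor V in the granule, had 0 counts in all 13 libraries. By depth alone this allows up to 0.0725 CPM in the deepest library and 0.183 CPM in the shallowest. That limit holds only if the annotation used for counting let reads of Mmrn1 be assigned, which was not tested. Thbs1 encodes thrombospondin 1, an adhesive granule protein that other cells make too. Its level was 1.34, 0 and 38.8 CPM in the PLT-HSC libraries. PEM-HSC replicate 2, at 0.524 CPM, and MUL-HSC replicate 2, at 2.66 CPM, were the other libraries with Thbs1 counts, and the groups overlapped. For Thbs1 the log2 fold change in PLT-HSC against PEM-HSC was 7.06 (interval 1.23 to 12.9, edgeR adjusted p = 1). It was 2.89 without PLT-HSC replicate 3, so that library carried most of the difference. In PLT-HSC against MUL-HSC the value for Thbs1 was 4.12 with all libraries and -0.00079 without PLT-HSC replicate 3.

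PLT-HSC replicate 3 stood apart from the other PLT-HSC libraries in cell division genes. Summed over 15 mitosis genes, it had 1172 CPM, against 57.6 CPM in replicate 1 and 158 CPM in replicate 2. PEM-HSC libraries ran from 176 to 1622 CPM and MUL-HSC libraries from 187 to 1127 CPM on the same sum. Endothelial cells also make Thbs1, and 8 endothelial marker genes summed to 385, 314 and 564 CPM in PLT-HSC replicates 1, 2 and 3, the last being the highest of all 13 libraries. Their defining gene Cdh5 was at 0 throughout, and HSCs express others of the list, such as Tek and Esam. Immediate early genes, which include fast responders to handling, summed to 8152, 1089 and 2021 CPM in the same replicates. The part of cell division, endothelial and immediate early genes in the Thbs1 level was not tested.

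Plek had the largest ratio between group means among the 6 genes read in at least 10 libraries. It encodes pleckstrin, a major target of protein kinase C that takes part in granule release in platelets and is also made by leukocytes. Its level was 0.965, 0 and 21.5 CPM in the PLT-HSC libraries, ran from 0 to 42.1 CPM in PEM-HSC with a median of 13.2, and was 164, 102, 4.28 and 132 CPM in the MUL-HSC libraries. MUL-HSC replicates 1, 2 and 4 lay above all 9 PLT-HSC and PEM-HSC libraries, while replicate 3 lay among them. Means of Plek ± SD were 7.505 ± 12.2 CPM for the 3 PLT-HSC, 17.1 ± 17.9 CPM for the 6 PEM-HSC and 101 ± 69.0 CPM for the 4 MUL-HSC libraries. The log2 fold change was -3.89 in PLT-HSC against MUL-HSC (interval -8.90 to 1.12, edgeR adjusted p = 0.832) and -2.59 in PEM-HSC against MUL-HSC (interval -6.21 to 1.03, adjusted p = 0.999). In PLT-HSC against PEM-HSC it was -1.30 (interval -5.51 to 2.91, adjusted p = 1). Without PLT-HSC replicate 3 the values of PLT-HSC were -7.67 against MUL-HSC and -5.10 against PEM-HSC, so their size rests on that library.

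Cd34, Flt3, Cd48 and Cpa3, 4 genes set beside Plek after their values were seen, were lowest in the same MUL-HSC library as Plek. Cd34, a surface protein that the most primitive adult mouse HSCs carry little of, was at 41.7, 23.2 and 66.4 CPM in PLT-HSC, ran from 21.7 to 108 CPM in PEM-HSC, and was at 555, 449, 90.9 and 380 CPM in MUL-HSC. Flt3, whose protein was gated out, ran from 0 to 0.0308 CPM in PLT-HSC and from 0 to 5.34 CPM in PEM-HSC, and was at 10.7, 39.2, 0.428 and 8.73 CPM in MUL-HSC. Cd48, likewise gated out, was at 11.0, 6.47 and 0 CPM in PLT-HSC, at 15.9 CPM in PEM-HSC replicate 1 and 0 in the other 5 PEM-HSC libraries, and at 59.0, 22.8, 6.84 and 10.6 CPM in MUL-HSC. Its groups overlapped, and PLT-HSC replicate 1 had more Cd48 than MUL-HSC replicate 4 but only 0.965 CPM of Plek. Cpa3, a mast cell gene that some progenitors share and the only detected gene of 6 mast cell and basophil markers in MUL-HSC, was at 46.7, 37.2, 4.40 and 14.0 CPM there. Macrophage genes, which could also come with Plek, summed over 11 genes to 84.0 to 256 CPM in PLT-HSC, 93.8 to 403 CPM in PEM-HSC and 48.6 to 70.9 CPM in MUL-HSC, where 9 of the 11 had reads. Fewer cells with a transcript and less of it per cell cannot be told apart in libraries of pooled cells, and the part of the 4 genes or of macrophage transcripts in the Plek level was not tested.

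**Figure D3:**
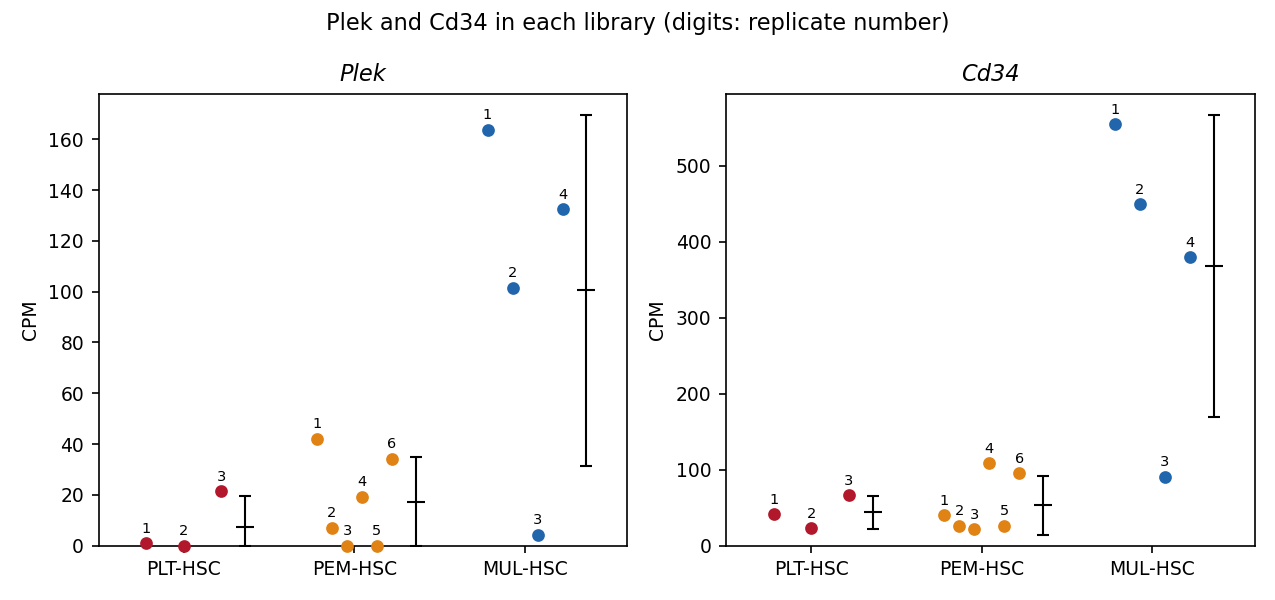
CPM of Plek (left) and Cd34 (right) in each library, with the replicate number at each point and the group mean ± SD drawn beside it (bars are cut at 0). MUL-HSC replicates 1, 2 and 4 are the highest libraries for both genes, and replicate 3 is at 4.28 CPM for Plek and 90.9 CPM for Cd34.

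Rab27b encodes a small GTPase that docks and releases platelet dense granules, and it was read in every library. Its level was 102, 24.7 and 88.5 CPM in the PLT-HSC libraries, ran from 21.9 to 100.2 CPM in PEM-HSC with a median of 61.8, and was 17.6, 37.1, 57.6 and 40.4 CPM in the MUL-HSC libraries. PLT-HSC replicates 1 and 3 and 3 PEM-HSC libraries lay above every MUL-HSC library, and PLT-HSC replicate 2 lay among the lowest, so the groups overlapped. Means of Rab27b ± SD were 71.8 ± 41.4 CPM for the 3 PLT-HSC, 61.4 ± 25.995 CPM for the 6 PEM-HSC and 38.2 ± 16.4 CPM for the 4 MUL-HSC libraries. On the log2 scale the fold change was 0.87 in PLT-HSC against MUL-HSC (SE 0.51, interval -0.20 to 1.94, edgeR adjusted p = 0.806) and 0.67 in PEM-HSC against MUL-HSC (SE 0.44, interval -0.26 to 1.60, adjusted p = 0.999). Between PLT-HSC and PEM-HSC it was 0.20 (interval -0.78 to 1.19, adjusted p = 1). The sign of that last value turned without PLT-HSC replicate 1, where it was -0.17.

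Tubb1 encodes beta-1 tubulin, which builds the ring of microtubules at the rim of a platelet. Its level was 6.13, 8.27 and 0 CPM in the PLT-HSC libraries, 9.53 CPM in PEM-HSC replicate 3 and 0 in the other 5 PEM-HSC libraries, and 0, 0, 0.0611 and 0.411 CPM in the MUL-HSC libraries. PLT-HSC replicates 1 and 2 and PEM-HSC replicate 3 were thus the only libraries above 1 CPM, and the groups overlapped because PLT-HSC replicate 3 was at 0. The 0.0611 CPM of MUL-HSC replicate 3 is 1 count, below the floor. Set against MUL-HSC, PLT-HSC had a log2 fold change of 5.39 with an interval from -1.60 to 12.4 (edgeR adjusted p = 0.837), a fitted value that rests on 17 counts and 1 count in 2 MUL-HSC libraries. In PEM-HSC against MUL-HSC it was 3.70 with all libraries and -4.72 without PEM-HSC replicate 3, and in PLT-HSC against PEM-HSC it was 1.70 with all libraries (adjusted p = 1) and 10.1 without PEM-HSC replicate 3 (adjusted p = 1). Megakaryocyte surface genes summed to 965 and 661 CPM in PLT-HSC replicates 1 and 2 and to 880.0 CPM in PEM-HSC replicate 3, within the range of the other libraries.

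Macrophage marker genes, taken as a sum, stood highest in the same 3 libraries as Tubb1. Their sum over 11 genes was 256, 251 and 84.0 CPM in the PLT-HSC libraries, 403 CPM in PEM-HSC replicate 3 and 93.8 to 183 CPM in the other 5 PEM-HSC libraries, and 48.6 to 70.9 CPM in MUL-HSC. Of these 11 genes 1, Csf1r, was at 0 in all PLT-HSC libraries, and none was at 0 in all PEM-HSC libraries. Gene by gene, 5 of 9 tested were positive in PLT-HSC against MUL-HSC, with a median log2 fold change of 0.02 beside 0.04 for all genes. In PEM-HSC against MUL-HSC 8 of the 9 were positive, with a median of 2.30 beside 0.01. Cd68 alone averaged 69.7 CPM over all libraries. The relation of the sum to Tubb1 was noticed after the values were seen, and the part of macrophage transcripts in the Tubb1 level was not tested.

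Nfe2 had the highest mean CPM of the 10 genes and the least spread on the log2 scale. Its level was 821, 939 and 960.1 CPM in the PLT-HSC libraries, ran from 1071 to 1388 CPM in PEM-HSC with a median of 1119.9, and was 941, 914, 1486 and 1260 CPM in the MUL-HSC libraries. Every PLT-HSC library lay below every PEM-HSC library, while MUL-HSC spanned both. Means of Nfe2 ± SD were 907 ± 75.3 CPM for the 3 PLT-HSC, 1183 ± 132 CPM for the 6 PEM-HSC and 1150.2 ± 273 CPM for the 4 MUL-HSC libraries. The log2 fold change in PLT-HSC against PEM-HSC was -0.37 (SE 0.17, interval -0.73 to -0.01, edgeR adjusted p = 1), and over 21 other settings it ran from -0.47 to -0.31. In PLT-HSC against MUL-HSC it was -0.34 (interval -0.73 to 0.04, adjusted p = 0.748). PEM-HSC and MUL-HSC differed by 0.02 (interval -0.30 to 0.35, adjusted p = 0.999), a narrow interval for these data.

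Gng11 encodes the gamma 11 subunit of heterotrimeric G proteins, which carry signals from surface receptors in platelets and many other cells. Its level was 571, 687 and 343 CPM in the PLT-HSC libraries, ran from 344 to 659 CPM in PEM-HSC with a median of 469, and was 204, 274, 575 and 256 CPM in the MUL-HSC libraries. MUL-HSC replicates 1, 2 and 4 lay below all 9 PLT-HSC and PEM-HSC libraries, and MUL-HSC replicate 3 lay among their upper values, so the groups overlapped. Means of Gng11 ± SD were 533 ± 175 CPM for the 3 PLT-HSC, 483 ± 104 CPM for the 6 PEM-HSC and 327 ± 168 CPM for the 4 MUL-HSC libraries. On the log2 scale the fold change was 0.73 in PLT-HSC against MUL-HSC (SE 0.33, interval 0.02 to 1.44, edgeR adjusted p = 0.66) and 0.55 in PEM-HSC against MUL-HSC (SE 0.29, interval -0.07 to 1.16, adjusted p = 0.951). Without MUL-HSC replicate 3 these were 1.15 (adjusted p = 0.202) and 0.97 (adjusted p = 0.422). Without PLT-HSC replicate 2 the PLT-HSC value was 0.43 (adjusted p = 0.796), and without MUL-HSC replicate 1 the values were 0.57 and 0.39. In PLT-HSC against PEM-HSC it was 0.19 (interval -0.47 to 0.84, adjusted p = 1).

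HSC marker genes were highest in the library with the most Gng11 of each group. Summed over 10 markers, they stood at 2899, 3312 and 2108 CPM in the PLT-HSC libraries, ran from 1922 to 2777 CPM in PEM-HSC, and stood at 1309, 1419, 2046 and 1697 CPM in the MUL-HSC libraries. The highest sums belong to PLT-HSC replicate 2, PEM-HSC replicate 1 and MUL-HSC replicate 3, which had 687, 659 and 575 CPM of Gng11. The rest of the order did not hold throughout: PEM-HSC replicate 2 had the lowest sum of its group and 520.3 CPM of Gng11, and MUL-HSC replicate 4 had a higher sum than replicate 2 but less Gng11. The relation of the sum to Gng11 was noticed after the values were seen, and the part of these markers in the Gng11 level was not tested.

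**Figure D4:**
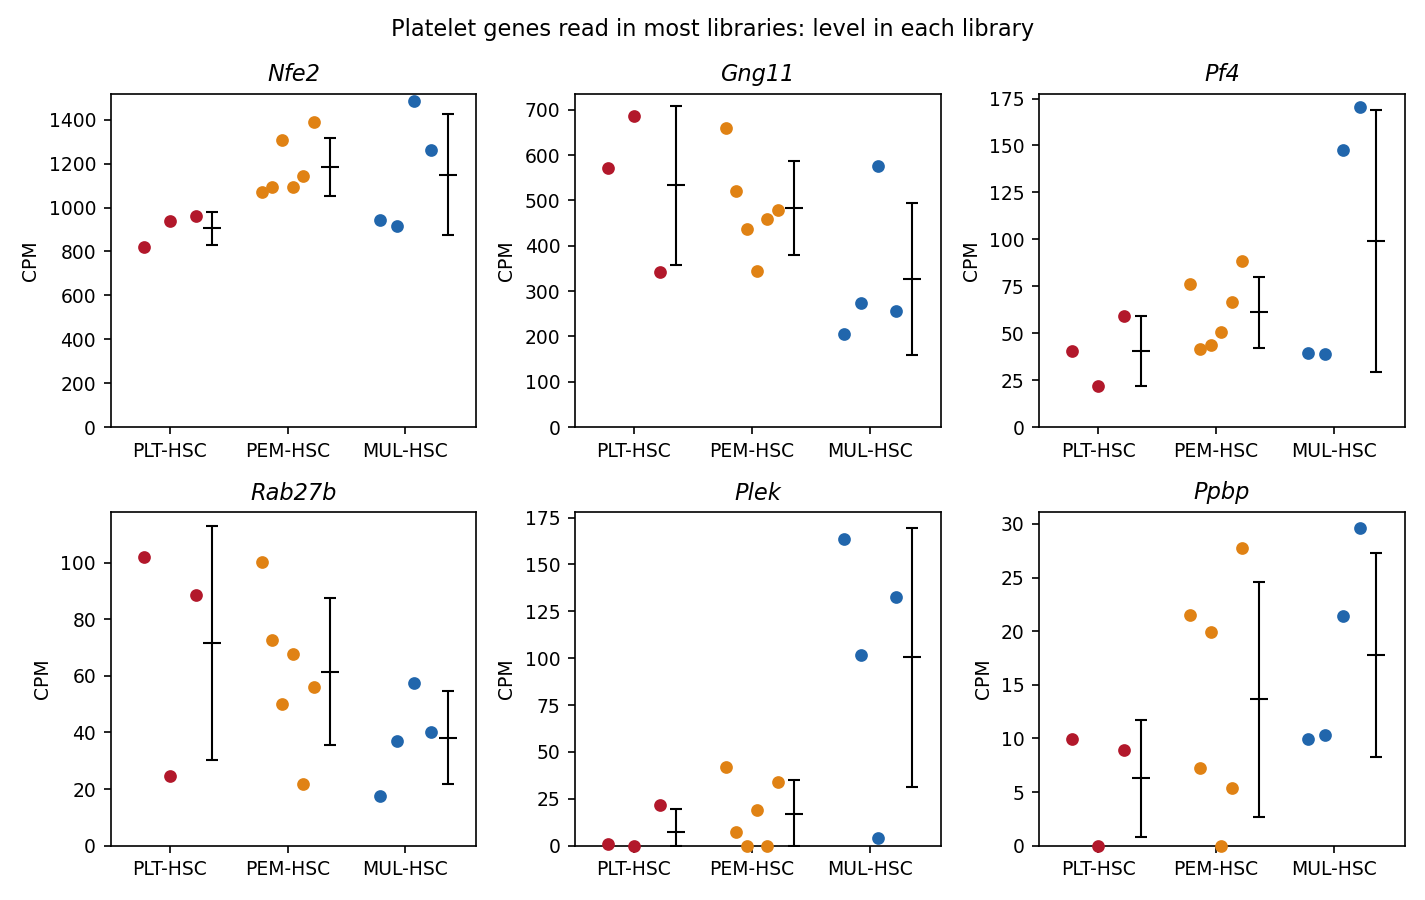
CPM in each library of the 6 platelet genes with reads in at least 10 libraries, in 6 panels with their own axes from 0. Points are libraries of PLT-HSC, PEM-HSC and MUL-HSC, and bars beside them are the mean ± SD, cut at 0. Each gene's groups overlap except Nfe2 in PLT-HSC, from 821 to 960.1 CPM, and PEM-HSC, from 1071 to 1388 CPM.

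The spread over libraries separated genes read in every library from ones with 0 counts in some libraries. On the log2 CPM scale, with a prior count of 2 and each gene centred on its own mean, the SD over 13 libraries was 0.24 for Nfe2, 0.55 for Gng11, 0.75 for Pf4 and 0.76 for Rab27b. It was 2.80 for Ppbp and for Tubb1, 2.76 for Thbs1, 2.12 for F5 and 3.99 for Plek. Plek had 0 counts in 3 libraries and 5477 counts in MUL-HSC replicate 4. These libraries hold few cells, and the cells behind a count were not resolved.

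Likeness to other genes was measured as the root mean square difference of those centred log2 values over the 13 libraries, among 8345 genes of at least 10 CPM on average. The closest of so many genes over so few libraries can lie near by selection alone, and shared variation was not tested. Closest to Gng11 were Tnip3 at 0.24 and Ptplad2 at 0.25, under the 0.55 that Gng11 itself varied by. Arpc1b lay at 0.17 from Nfe2, under the 0.24 of Nfe2 itself. For Rab27b the closest were Pak1 at 0.43 and Eya1 at 0.46, and for Pf4 they were Tmem167b at 0.44 and Ash1l at 0.45. Plek, Thbs1, F5, Tubb1 and Ppbp had no gene closer than 1.502, the distance of Cluh from F5. Cd68, a macrophage gene of the list above, was the closest to Tubb1, at 1.96, and is not independent of the macrophage sum, which holds it. Among the 10 genes themselves the smallest distance, Gng11 and Nfe2 at 0.55, was no smaller than the variation of Gng11 itself. Pf4 was the member closest to Ppbp, at 2.47, beside the 2.80 that Ppbp varied by.

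Further genes of the same system were read from lists of cargo, secretion, cytoskeleton, transcription factor and signalling genes. Of 15 tested cargo genes Vwf was called, higher in PLT-HSC against MUL-HSC (136 ± 55.3 CPM in PLT-HSC and 10.1 ± 3.89 CPM in MUL-HSC, log2 fold change 3.72, edgeR adjusted p = 0.00412) and higher in PEM-HSC against MUL-HSC (78.2 ± 32.1 CPM in PEM-HSC, 2.94, adjusted p = 0.0234). Over 21 other settings the call was lost in 2 for PLT-HSC (voom, and a fit that drops MUL-HSC replicates 1 and 2 together) and in 9 for PEM-HSC. Those 9 include voom, the fit of 2 groups, and dropping replicate 1, 2 or 4 of MUL-HSC, replicate 5 of PEM-HSC or replicate 2 of PLT-HSC. The fold change stayed between 3.38 and 3.89 for PLT-HSC and between 2.61 and 3.11 for PEM-HSC over these settings. The starting cells of all groups had been chosen by Vwf expression. The median cargo gene differed by 0.36, 0.07 and 0.15 for PLT-HSC against MUL-HSC, PEM-HSC against MUL-HSC and PLT-HSC against PEM-HSC, beside 0.04, 0.01 and 0.02 for all tested genes. The most abundant cargo genes, Srgn, the proteoglycan core that holds granule contents, and Cd63, a granule membrane protein, stood at 1905 and 1409 CPM for PLT-HSC, 1621 and 1436 CPM for PEM-HSC, and 1823 and 1378 CPM for MUL-HSC.

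None of 30 tested genes for granule formation and secretion was called, and their median differences were 0.24, 0.26 and -0.04 in the same order of comparisons. Dtnbp1, dysbindin of the complex that builds dense granules, had the smallest p of the list in PLT-HSC against MUL-HSC, with 193 ± 80.7 CPM for PLT-HSC and 432 ± 87.3 CPM for MUL-HSC and no overlap (log2 fold change -1.22, edgeR adjusted p = 0.189). Snap23, the SNARE protein of platelet granule release, had the smallest p in PEM-HSC against MUL-HSC, with 416 ± 53.5 CPM for PEM-HSC and 201 ± 34.3 CPM for MUL-HSC and no overlap (1.03, adjusted p = 0.311). In PLT-HSC Snap23 averaged 393 ± 162 CPM. Rab32, a GTPase of dense granule cargo transport, stood at 226 ± 30.6 CPM in PEM-HSC and 365 ± 25.8 CPM in MUL-HSC (-0.71, adjusted p = 0.51). Plek2, a relative of Plek, averaged 8.12 ± 5.17 CPM in PLT-HSC and was at 0 in all MUL-HSC libraries (adjusted p = 0.491).

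None of 29 tested cytoskeleton genes was called, with median differences of 0.13, -0.06 and 0.04. The myosin light chain Myl12b stood at 1069.6 ± 201 CPM in PLT-HSC and 1533 ± 174 CPM in MUL-HSC (log2 fold change -0.52, edgeR adjusted p = 0.646), and Tpm4, a tropomyosin of megakaryocytes, at 59.5 ± 13.4 CPM in PLT-HSC and 30.5 ± 12.6 CPM in MUL-HSC (0.99, adjusted p = 0.646). Pfn1 and Tmsb4x, which bind actin monomers, were the most abundant, at 2068 and 2063 CPM for PLT-HSC, 1964 and 1649 CPM for PEM-HSC, and 2125 and 1688 CPM for MUL-HSC.

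Of 18 tested megakaryocyte transcription factors 17 had a positive fold change when PLT-HSC was set against MUL-HSC, where the median was 0.58 and 52.4% of all genes were positive. Mef2c, a factor of megakaryocytic and lymphoid cells, was called there, with 382 ± 48.5 CPM for PLT-HSC and 150.1 ± 26.7 CPM for MUL-HSC (log2 fold change 1.33, edgeR adjusted p = 0.0487). The call was lost in 14 of 21 other settings, including voom and dropping any 1 library of MUL-HSC, replicate 1 or 2 of PLT-HSC, or replicate 1, 2, 3 or 6 of PEM-HSC, with fold changes between 1.23 and 1.57 over all 21. It was not called in PEM-HSC against MUL-HSC (247 ± 49.9 CPM in PEM-HSC, 0.69, adjusted p = 0.595) or in PLT-HSC against PEM-HSC (0.64, adjusted p = 1). In PEM-HSC against MUL-HSC 13 of the 18 were positive, with a median of 0.42. HSC marker sums, given above, were also higher in PLT-HSC and PEM-HSC than in most MUL-HSC libraries, and their part in these medians was not tested. Nfe2, described above, is also a factor of platelet formation but is not counted among the 18. Its fold changes against MUL-HSC were -0.34 in PLT-HSC and 0.02 in PEM-HSC.

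None of 23 tested platelet signalling genes was called, with median differences of 0.09, -0.15 and 0.04. Gng12, another G protein gamma subunit, stood at 62.7 ± 6.00 CPM for PLT-HSC, 74.3 ± 15.3 CPM for PEM-HSC and 111 ± 14.7 CPM for MUL-HSC. Its log2 fold changes against MUL-HSC were -0.82 and -0.59 (edgeR adjusted p = 0.496 and 0.732), opposite in sign to those of Gng11. Btk, a kinase below the collagen receptor, stood at 28.0 ± 6.62, 49.3 ± 14.9 and 66.0 ± 18.2 CPM in PLT-HSC, PEM-HSC and MUL-HSC (-1.26 in PLT-HSC against MUL-HSC, adjusted p = 0.451). Rgs18, which limits G protein signals in platelets, was the most abundant, at 1417, 1390.1 and 1654 CPM in the same order of groups.

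**Figure D5:**
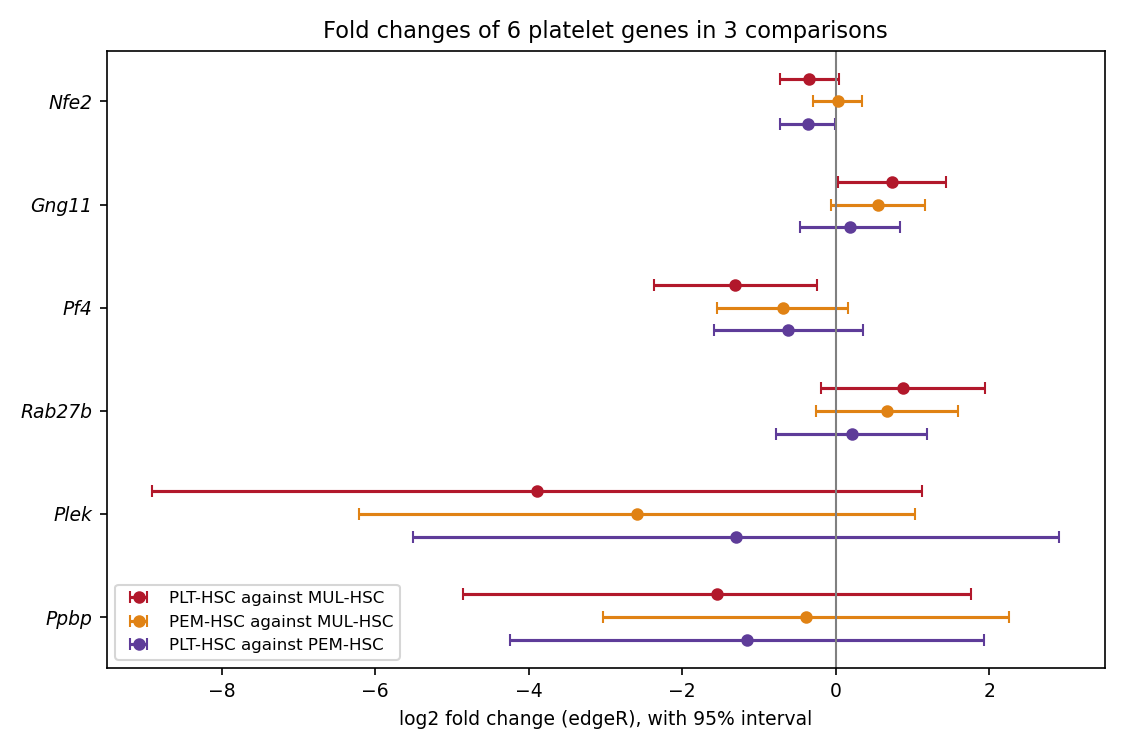
Log2 fold change (points) with its 95% interval (bars) for 6 platelet genes in PLT-HSC against MUL-HSC, PEM-HSC against MUL-HSC and PLT-HSC against PEM-HSC, from the edgeR fit of 13 libraries. Intervals for Pf4 (-2.37 to -0.25) and Gng11 (0.02 to 1.44) in PLT-HSC against MUL-HSC and for Nfe2 (-0.73 to -0.01) in PLT-HSC against PEM-HSC lie to 1 side of 0 before adjustment, and those of Plek and Ppbp span several log2 units.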

How the data were processed

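Per the labels' protocols, cells were sorted by FACS, cDNA was made with Smart-seq+ and libraries with Nextera XT. Build mm9 and the tools STAR, featureCounts, FastQC and Trimmomatic are named, per the submitters' processing notes. Versions, strand mode and annotation are not given in the sources used here, so reads of genes that overlap, antisense ones included, may be mixed. The values deposited by the authors are raw counts for each gene symbol in 13 libraries, without normalization, with 92 ERCC spike-in rows (0.0191% to 0.0612% of reads) that were left out of library totals and tests. Groups came from the labels. Replicates differed by more than sampling noise in every pair, with chi-square over its degrees of freedom at 163 or more for genes with at least 20 counts.

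Counts were fitted with edgeR 4.0.16 in R 4.3.3 (filterByExpr, TMM, robust quasi-likelihood, 1 term per group, all 13 libraries), and Benjamini-Hochberg adjustment ran over 12536 genes. Log2 fold changes are PLT-HSC or PEM-HSC over the group named after "against". SEs and 95% intervals were derived from the F statistic. The model was tested on simulated data. CPM is a count over the total gene counts of its library. Alternatives were DESeq2 1.42.0, limma 3.58.1 voom, RLE scaling, 2 other filters, fits of 2 groups, a replicate block and leaving out libraries. The correlation of deviations between same-numbered libraries was at most 0.05, so the numbers do not pair libraries.

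The genes and lists were chosen with earlier results of these data known. Named were all 10 genes and, per list, called genes or those with the smallest p (up to 3 per comparison) and the 2 most abundant, from which examples are given, plus the 2 genes closest to each member. A few items that these rules name are not reported here. Diaph1 was read as Diap1, its older symbol.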

Additional observations from a re-analysis of the deposited data

Results flagged for a closer look

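Dixon's test at the 95% level was run on 18 combinations of a gene and a group of 4 or 6 libraries. In 6 of them 1 library lay far from the others. All 6 concern genes that are at or near 0 in the rest of their group. The test flags about 1 in 20 groups by chance where values are normally spread. Where all other libraries are at 0, any library with counts is flagged, so the 6 flags cannot be set against that rate. F5 was at 0.537 CPM in PEM-HSC replicate 4 (15 counts) and at 2.79 CPM in MUL-HSC replicate 1 (62 counts), with 0 in the other libraries of both groups. Thbs1 was at 0.524 CPM in PEM-HSC replicate 2 (12 counts) and at 2.66 CPM in MUL-HSC replicate 2 (69 counts), again with 0 in the others. Tubb1 was at 9.53 CPM in PEM-HSC replicate 3 (220 counts), with 0 in the others, and at 0.411 CPM in MUL-HSC replicate 4 (17 counts), where the next library had 1 count. PLT-HSC, with 3 libraries, was not examined in this way.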

How the results depend on the processing

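None of the 9 genes with counts was called in any of the 21 other settings of each comparison in which it could be fitted. The stricter filter and some fits left out F5, Thbs1 or Tubb1, and Mmrn1 was not fitted in any setting. The number of genes called over the whole table moved more. For PLT-HSC against MUL-HSC it was 6, and 249 with DESeq2, 11 with no filter on low counts, 13 with at least 10 CPM in 3 libraries, 0 with voom, 1 with only the 2 groups compared, 1 without both MUL-HSC replicates 1 and 2, and 1 to 37 leaving out 1 library (37 without PLT-HSC replicate 3, 21 without MUL-HSC replicate 3). For PEM-HSC against MUL-HSC it was 1, and 175 with DESeq2, 0 with only the 2 groups compared and 0 to 4 leaving out 1 library. For PLT-HSC against PEM-HSC it was 0, and 93 with DESeq2, 1 with voom and 0 to 2 leaving out 1 library. A replicate block, for numbers that do not pair the libraries, gave 2, 0 and 0 calls in the 3 comparisons, and 1 library in each comparison correlated best with its own number.

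Of 555 fold changes of the members under other settings, 17 turned in sign, and none of these genes was called. Leaving out 1 library, F5 ran from -1.10 to 8.45 and Thbs1 from -0.00079 to 11.4 in PLT-HSC against MUL-HSC. In PEM-HSC against MUL-HSC F5 ran from -7.28 to 4.33, Thbs1 from -7.26 to 4.31, Tubb1 from -4.72 to 6.07 and Nfe2 from -0.057 to 0.18. In PLT-HSC against PEM-HSC Rab27b ran from -0.17 to 0.59 and Gng11 from -0.12 to 0.45. The replicate block turned Nfe2 (-0.019, PEM-HSC against MUL-HSC) and Rab27b (-0.17, PLT-HSC against PEM-HSC), and voom turned Tubb1 (-0.30, PEM-HSC against MUL-HSC). Without both MUL-HSC replicates 1 and 2, F5 was 4.35, Thbs1 4.34 and Nfe2 -0.20 in PEM-HSC against MUL-HSC. Apart from fewer libraries in the fits that leave some out, the cause was not tested. Mean levels of the members moved by less than 1 SD with TMM-scaled totals or with spike-in reads in the total. For Mmrn1, at 0 counts throughout, depth sets only an upper limit of its level, and only if its reads could be assigned.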

Other observations

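Neutrophil genes, which include granule cargo of another cell type, summed over 8 genes to between 188 and 725 CPM in PLT-HSC, between 236 and 679 CPM in PEM-HSC and between 278 and 383 CPM in MUL-HSC, with Ltf at 0 in all 13 libraries. B cell genes summed over 6 genes to between 90.9 and 150.3 CPM in PLT-HSC, between 97.6 and 184 CPM in PEM-HSC and between 101 and 165 CPM in MUL-HSC, with Ms4a1 and Pax5 at 0 in all 13.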
